A study of Mus musculus with 9 samples.

Results

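NRF2 and its target genes were followed in ST2 cells, a mouse bone marrow stromal line, by 10 genes found by name in the count table of 54532 genes: Nfe2l2, which encodes NRF2 itself, Keap1, which encodes its inhibitor, and the 8 targets Gclc, Gclm, Slc7a11, Txnrd1, Srxn1, Hmox1, Nqo1 and Osgin1. The genes were picked because the targets stood higher when OSMI was added, so their values in the comparisons that use the OSMI libraries are a description and carry no p-value here. Poly-A RNA was sequenced in 9 libraries, 3 in each group, after 72 h of treatment. The vehicle group received neither agent, the rhWnt3a group received recombinant human Wnt3a at 50 ng/ml, and the rhWnt3a with OSMI group received the same dose of rhWnt3a together with 20 µM OSMI, an inhibitor of the O-GlcNAc transferase OGT. That last group is named from the sample titles, while its treatment label names OSMI alone. No library of OSMI without rhWnt3a was analysed here, and ST2 is a single line. The study describes the replicates as biological, and the labels do not say whether they were separate cultures, so the p-values measure the spread between these libraries.

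NRF2 is a transcription factor that is made continuously and, in unstressed cells, is bound by KEAP1 and handed to a CUL3 ubiquitin ligase for degradation. Oxidants and electrophiles modify cysteines of KEAP1, NRF2 then accumulates, pairs with a small MAF protein and binds antioxidant response elements near its targets. The targets make glutathione (Gclc and Gclm, the catalytic and modifier subunits of glutamate-cysteine ligase), import cystine for it (Slc7a11), reduce thioredoxin and peroxiredoxins (Txnrd1, Srxn1), break down heme (Hmox1) and detoxify quinones (Nqo1). Osgin1 encodes an oxidative stress induced growth inhibitor. The libraries measure messenger RNA, and neither NRF2 protein nor redox state was measured in them. In bulk RNA, a change in the number of cells carrying a messenger and a change in RNA per cell cannot be told apart.

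RefSeq lists promoter sequences for 8 of the 10 genes (GRCm38.p6, from 250 bases before to 50 after a transcription start). They are shown where they hold a motif of a factor that acts on these genes. The targets were grouped as NRF2 targets, and their promoters differ in which motif they hold, as the motifs are spelled below. Gclc and Hmox1 were not among the listed promoters. Both strands were searched for the core of the antioxidant response element, TGACNNNGC, for the AP-1 site, TGANTCA, and for the amino acid response element bound by ATF4, TGATGNAA. Capitals mark the motif within 10 bases on either side, and all sequences are written 5′ to 3′ along the gene's strand.
Gclm, element core on the opposite strand, 134 to 126 bases before the start, chr3:122245413-122245441, plus strand: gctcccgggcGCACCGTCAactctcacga
Txnrd1, element core on the opposite strand, 92 to 84 bases before start 2 of the gene's 3 listed starts, chr10:82859104-82859132, plus strand: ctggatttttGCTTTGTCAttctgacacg
Srxn1, element core on the opposite strand, 29 to 37 bases after the start and inside a Srxn1 exon, chr2:152105542-152105570, plus strand: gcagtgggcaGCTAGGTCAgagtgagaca
Nfe2l2, element core, 240 to 232 bases before the start, chr2:75704885-75704913, minus strand: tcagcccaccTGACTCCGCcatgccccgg
Srxn1, AP-1 site, 102 to 96 bases before the start, chr2:152105412-152105438, plus strand: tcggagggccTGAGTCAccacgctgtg
Srxn1, AP-1 site, 45 to 39 bases before the start, chr2:152105469-152105495, plus strand: aaattcacccTGAGTCAgcggccgggc
Osgin1, AP-1 site, 97 to 91 bases before the start, chr8:119437040-119437066, plus strand: gggcccctgcTGACTCAcgcttatgaa
Slc7a11, amino acid response element, 66 to 59 bases before the start, chr3:50443662-50443689, minus strand: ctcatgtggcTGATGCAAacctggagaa
Slc7a11, amino acid response element on the opposite strand, 47 to 40 bases before the start, chr3:50443643-50443670, minus strand: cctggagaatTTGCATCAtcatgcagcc

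The element core was found in 4 of the 8 genes with a listed promoter, beside 14% of all 27025 genes with one (12.4% of their 32851 windows, since some genes have several starts). The AP-1 site was found in 2 of the 8 genes, beside 8.97% of genes and 7.81% of windows. The amino acid response element was found in Slc7a11 alone of the 8 genes, beside 4.51% of genes and 3.97% of windows. With the letters searched, no match of one motif overlapped a match of another in these windows. The core was sought only as TGACNNNGC, so stretches that differ from it were not counted. Among these, TGAGTCAgc in Srxn1, and gcTGACTCA in Osgin1 read on the opposite strand, have G where the core has C. Both are marked above as AP-1 sites only. The count of 4 of the 8 genes therefore covers these letters, and not every stretch that NRF2 may bind. The windows of Keap1 and Nqo1 held none of the 3 motifs, which says only that these letters are absent from 300 bases, as NRF2 elements can lie farther from the start. The match of Nfe2l2 lies in an exon of the neighbouring transcript E030042O20Rik, and its listed start did not match the first bases of a GENCODE transcript of Nfe2l2. The listed start of Osgin1, position 119437147 on chromosome 8, lies inside the annotated gene, which runs from 119434124 to 119446256. The whole upstream stretch of Gclm, which overlaps no annotated exon, shows the core in its setting (chr3:122245307-122245556, plus strand).
Gclm, 250 bases before the start: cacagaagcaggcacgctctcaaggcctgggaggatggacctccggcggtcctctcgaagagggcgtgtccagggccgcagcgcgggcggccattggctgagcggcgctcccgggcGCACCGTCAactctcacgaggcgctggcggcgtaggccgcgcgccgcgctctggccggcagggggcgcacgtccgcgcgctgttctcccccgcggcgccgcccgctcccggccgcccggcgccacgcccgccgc

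**Figure D1:**
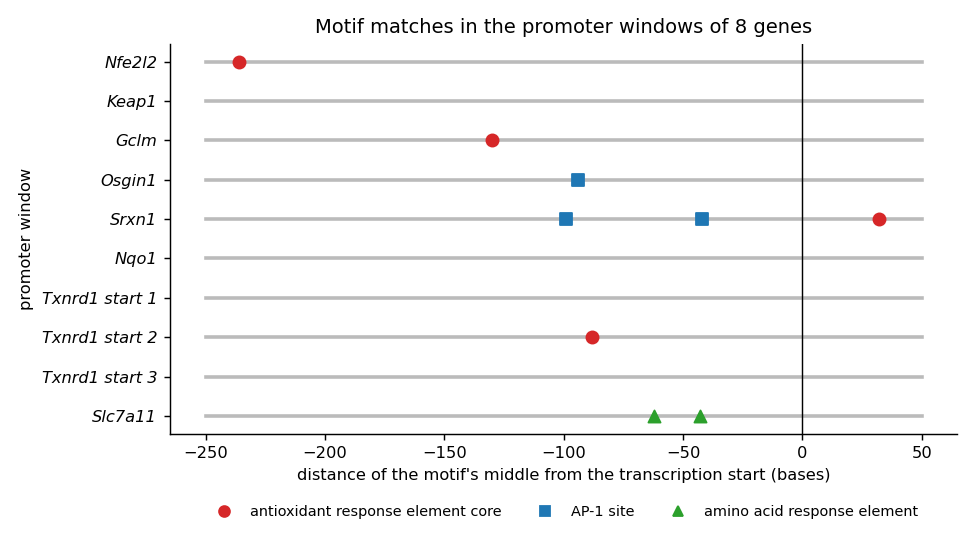
Positions of motif matches in the RefSeq promoter windows of 8 of the 10 genes. The x axis is the distance in bases from the transcription start, each grey line is a window from 250 bases before to 50 after a start, and red circles, blue squares and green triangles mark the antioxidant response element core, the AP-1 site and the amino acid response element. Gclm, Txnrd1 start 2, Srxn1 and Nfe2l2 hold the element core, Osgin1 and Srxn1 the AP-1 site, and Slc7a11 alone the amino acid response element. The core was sought only as TGACNNNGC, and stretches of Srxn1 and Osgin1 with G in place of its C are marked as AP-1 sites only.

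The libraries held 16135898 to 17583945 counts in genes, at which 3 counts come to 0.170 to 0.191 CPM (counts scaled to a common library size by TMM), and all 10 genes lay far above this and passed the filter on low counts. In each group 1 library stood apart from the other two: vehicle replicate 3, rhWnt3a replicate 2 and rhWnt3a with OSMI replicate 3. The first axis of the deviations within groups held 54.8% of their variance and moved with gene length. The median deviation from the group mean of genes of up to 2875 bases, minus that of genes of 5473 bases or more, was 0.29, 0.41 and -0.38 log2 in these 3 libraries. By sign on this axis, vehicle replicate 3, rhWnt3a replicate 2 and rhWnt3a with OSMI replicates 1 and 2 lay on one side, called side A below, and the other 5 libraries on side B, so that side A held 1 library of each group without OSMI and 2 libraries with it. The part of this axis in the differences between groups was not tested, and values within each side are given for targets whose results it moves. The stromal identity of the cells was checked by 9 markers, of which Col1a1, Col1a2, Col3a1, Pdgfra, Pdgfrb, Cxcl12, Vcam1 and Twist1 were present and Thy1 had at most 4 counts in any library. The summed stromal markers were 20640 to 27230 CPM with vehicle, 17120 to 20170 with rhWnt3a and 8598 to 16970 with rhWnt3a and OSMI, and their part in the results was not tested. Blood cell markers summed to at most 1.98 CPM, endothelial markers to at most 1.28 CPM and epithelial markers to at most 0.191 CPM in any library, and Cd3e, Krt5 and Krt14 were at 0 throughout.

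**Figure D2:**
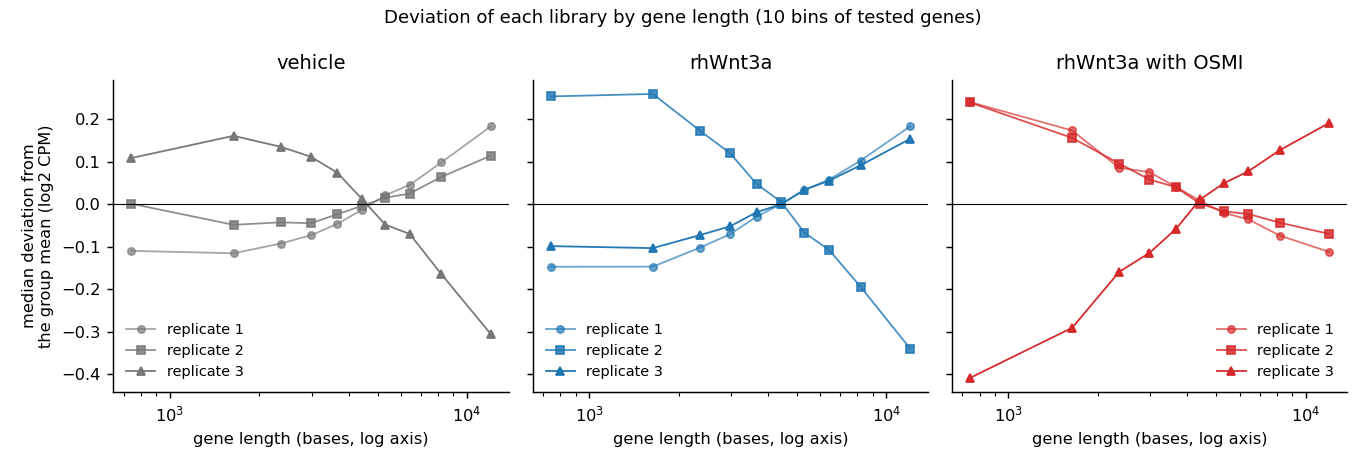
Deviation of each library from its group mean by gene length. The x axis is gene length in bases on a log axis, the y axis the median deviation in log2 CPM of tested genes in 10 bins of length, with a panel per group and a line per replicate. Vehicle replicate 3 and rhWnt3a replicate 2 run opposite to the other replicates of their groups, and so does rhWnt3a with OSMI replicate 3, in the opposite direction.

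Per length of transcript, Hmox1 was the most abundant of the 10 messengers in every group. With vehicle it stood at 438 ± 115 CPM per kilobase (SD, n = 3), followed by Txnrd1 at 42.5 ± 6.98 and Nfe2l2 at 41.8 ± 7.5, which did not differ beyond their spread. Srxn1 at 24.2 ± 4.31 and Gclc at 23.5 ± 3.96 CPM per kilobase came next and were likewise within their spread of each other. Nqo1 at 15.6 ± 0.403 and Gclm at 13.6 ± 2.98 CPM per kilobase followed, and differed by less than the SD of Gclm. Keap1 at 10.8 ± 1.01, Osgin1 at 5.41 ± 0.836 and Slc7a11 at 4.83 ± 0.446 CPM per kilobase were lowest, and the last pair differed by less than the SD of Osgin1. With rhWnt3a and OSMI, Txnrd1 was at 103 ± 10.46, Srxn1 at 61.4 ± 14.1, Gclc at 61.1 ± 5.09 and Nfe2l2 at 35.6 ± 3.57 CPM per kilobase, so that Nfe2l2 was below 4 of the 8 targets where with vehicle it had been below Hmox1 and level with Txnrd1. All other levels below are CPM not divided by length, and compare a gene with itself across libraries.

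The first question was whether the messengers of NRF2 and of its inhibitor moved with either treatment. Neither passed the test with rhWnt3a, and for both the libraries with and without OSMI overlapped. Nfe2l2 (ENSMUSG00000015839, GRCm38 chromosome 2, 75675513 to 75704641) was at 142, 142 and 191 CPM with vehicle, at 141, 147 and 133 with rhWnt3a and at 144, 142 and 120 with rhWnt3a and OSMI. The groups overlapped, and the widest values were those of vehicle replicate 3 and of rhWnt3a with OSMI replicate 3. The log2 fold change of Nfe2l2 with rhWnt3a was -0.18 ± 0.15 (SE, adjusted p = 0.624, edgeR quasi-likelihood test), with a 95% interval of -0.52 to 0.16. With OSMI added to rhWnt3a it was -0.05 ± 0.15, with an interval of -0.39 to 0.28, and its sign changed in 4 of 18 refits under other settings.

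Keap1 (ENSMUSG00000003308, chromosome 9, 21229730 to 21239361) encodes the adaptor that holds NRF2 for degradation. It was at 48.4, 56.1 and 47.5 CPM with vehicle, at 42.2, 39.5 and 40.0 with rhWnt3a and at 42.9, 40.6 and 50.6 with rhWnt3a and OSMI. All 3 rhWnt3a libraries lay below the vehicle libraries, as did those of 14.2% of all tested genes, and the log2 fold change of -0.32 ± 0.13 did not pass the test (adjusted p = 0.195). With OSMI added the log2 fold change was 0.14 ± 0.13 and the groups overlapped. The antisense gene Gm16754 covers 14.2% of the Keap1 transcript and had at most 44 counts in a library, and the strand setting of the counting is not given in the sources used here.

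**Figure D3:**
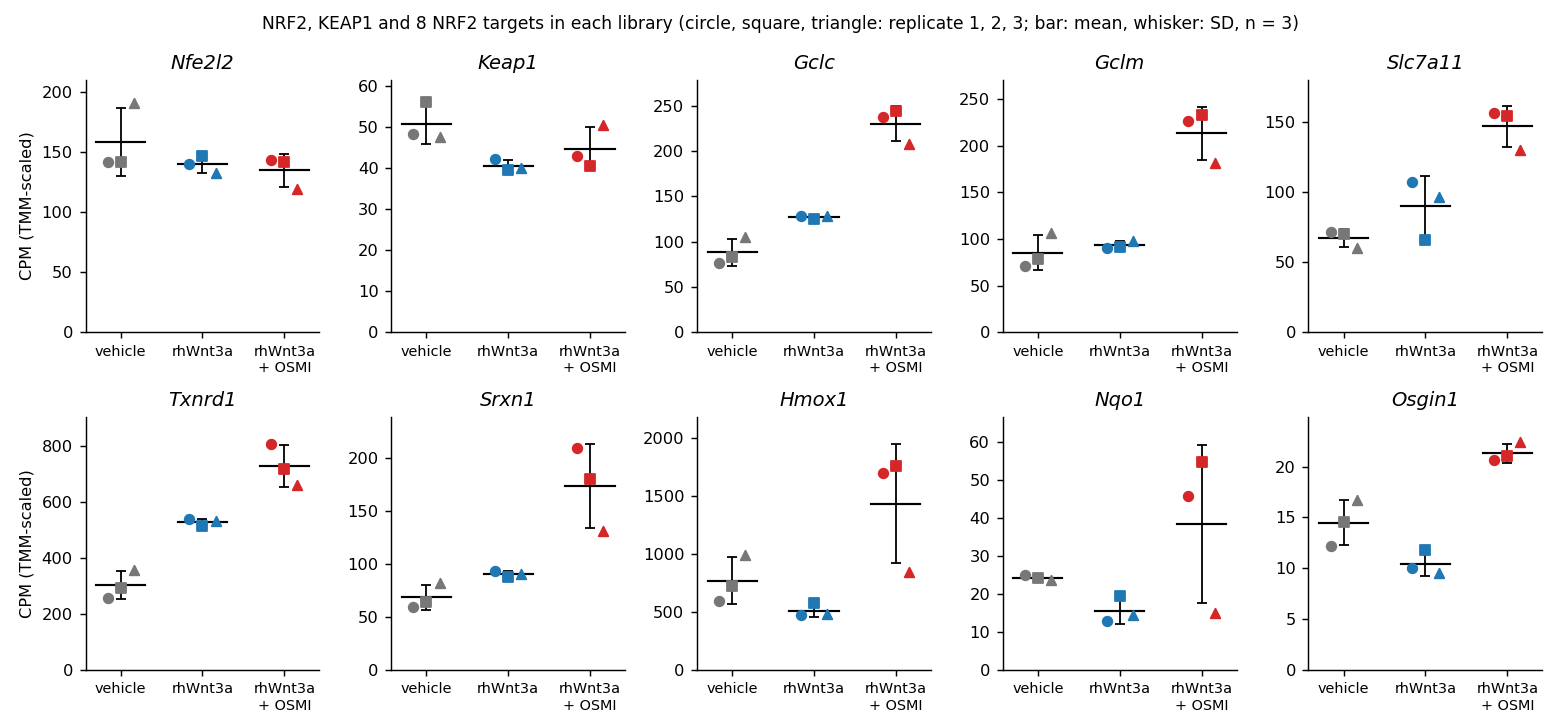
Levels of the 10 genes in each of the 9 libraries. The y axes show CPM scaled by TMM, points are libraries (circle, square and triangle for replicates 1, 2 and 3), and the bar and whisker are the mean and SD of 3 libraries. The groups overlap for Nfe2l2, 7 of the 8 targets lay above the rhWnt3a libraries in every library with OSMI, and replicate 3 of that group was the lowest of its group for 7 of the 8 targets.

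With rhWnt3a alone the 8 targets did not move as a group. Txnrd1 rose 1.75-fold and was the only one of the 10 genes to pass the test, against 2.92% of all tested genes called higher and 5.86% called lower. A call needed an adjusted p below 0.05 with a log2 fold change of more than 0.5 in size. Gclc, Srxn1 and Txnrd1 lay above vehicle in all rhWnt3a libraries, while Hmox1, Nqo1 and Osgin1 lay below it, where 12.2% of tested genes had all libraries higher and 14.2% all lower. The median log2 fold change of the 8 targets was 0.27, against 0.04 over all tested genes. This comparison did not choose the genes, but it shares the rhWnt3a libraries with the comparison that did, in which a low rhWnt3a level helps a gene to be picked.

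When OSMI was added to rhWnt3a the targets stood higher by 1.38-fold (Txnrd1) to 2.81-fold (Hmox1), which is the pattern that they were picked for. Their median log2 fold change was 0.98, against -0.01 over all tested genes. Of the 8 targets, 7 lay above rhWnt3a in every library, where 16.7% of tested genes did and 17% lay below it in every library. The 5 genes Gclc, Gclm, Hmox1, Osgin1 and Srxn1 met the call rule, beside 1.69% of tested genes called higher and 3.05% called lower, and nothing is read from this count, since the comparison chose the genes. Some of these calls changed with a single library: Gclc lost its call without rhWnt3a replicate 3, Hmox1 without rhWnt3a replicate 1 or 3 or OSMI replicate 1 or 2, and Srxn1 without any single library of these groups other than OSMI replicate 3, while Nqo1 gained a call without OSMI replicate 3.

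Against vehicle, which compares rhWnt3a and OSMI together with neither, the targets stood between 1.47-fold (Osgin1) and 2.60-fold (Gclc) higher. Gclc, Gclm, Osgin1, Slc7a11, Srxn1 and Txnrd1 met the call rule, beside 4.84% of tested genes called higher and 9.34% called lower. The same 6 genes lay above vehicle in every library, beside 19.3% of tested genes, and none lay below it in every library, beside 19.5%. Hmox1 and Nqo1 overlapped with vehicle, and both met the call rule without OSMI replicate 3, Hmox1 also without vehicle replicate 3. Osgin1 lost its call without vehicle replicate 1 or 2, without rhWnt3a replicate 3, or without any single OSMI library. Since both agents differ between these groups, their parts cannot be told apart in this comparison, and as it uses the OSMI libraries these values too are a description.

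**Figure D4:**
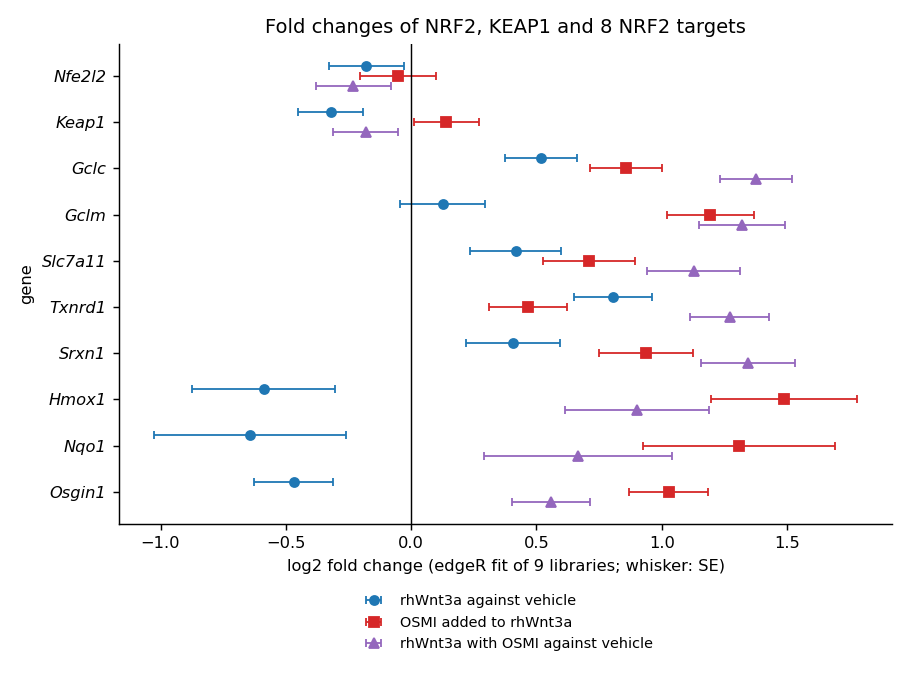
Fold changes of the 10 genes in the 3 comparisons. The x axis is the log2 fold change from the fit of 9 libraries with its SE as whisker, in blue circles for rhWnt3a against vehicle, red squares for OSMI added to rhWnt3a and purple triangles for both together against vehicle. Hmox1, Nqo1 and Osgin1 have blue points below 0 and red points above 0, whereas Gclc, Gclm, Slc7a11, Txnrd1 and Srxn1 have both above 0.

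The genes of glutathione supply differed in what rhWnt3a alone did. Gclc (ENSMUSG00000032350, chromosome 9, 77754535 to 77794485), the catalytic subunit of the ligase that limits glutathione synthesis, was at 76.8, 83.6 and 105 CPM with vehicle, at 128, 125 and 129 with rhWnt3a and at 238, 244 and 208 with rhWnt3a and OSMI. The 3 groups did not overlap and stood in this order. The log2 fold change of Gclc with rhWnt3a was 0.52 ± 0.14 and just missed the threshold (adjusted p = 0.0513), with calls in 8 of 18 refits, among them those without vehicle replicate 3 and without rhWnt3a with OSMI replicate 3. Within sides A and B it was 0.24 and 0.68. With OSMI added it was 0.86 ± 0.14, and 0.95 and 0.70 within the sides.

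Gclm (ENSMUSG00000028124, chromosome 3, 122245557 to 122270732), the subunit that raises the efficiency of that ligase, carries the element core shown above. It was at 71.0, 78.7 and 107 CPM with vehicle, at 90.0, 91.8 and 97.9 with rhWnt3a and at 226, 233 and 181 with rhWnt3a and OSMI. Vehicle and rhWnt3a overlapped, and the OSMI libraries lay above both. The log2 fold change of Gclm was 0.13 ± 0.17 with rhWnt3a (adjusted p = 0.789), with values of -0.22 and 0.33 within sides A and B. With OSMI added it was 1.19 ± 0.17, and 1.32 and 0.95 within the sides.

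Slc7a11 (ENSMUSG00000027737, chromosome 3, 49892526 to 50443614) encodes xCT, which imports cystine in exchange for glutamate, and is also a target of ATF4, whose element its promoter holds. It was at 71.6, 70.0 and 60.2 CPM with vehicle, at 107, 65.7 and 96.6 with rhWnt3a and at 156, 155 and 130 with rhWnt3a and OSMI. In rhWnt3a replicate 2 it was at the level of vehicle, while the OSMI libraries lay above all others. Its log2 fold change with rhWnt3a of 0.42 ± 0.18 did not pass the test (adjusted p = 0.237), but did without rhWnt3a replicate 2, at 0.60. Within sides A and B the change with rhWnt3a was 0.13 and 0.52. With OSMI added it was 0.71 ± 0.18, and 1.24 and 0.35 within the sides.

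Of the thioredoxin genes Txnrd1 moved with rhWnt3a alone. Txnrd1 (ENSMUSG00000020250, chromosome 10, 82833951 to 82897712), the cytosolic thioredoxin reductase, was at 257, 293 and 355 CPM with vehicle, at 537, 512 and 531 with rhWnt3a and at 807, 715 and 660 with rhWnt3a and OSMI. The 3 groups did not overlap. Its log2 fold change with rhWnt3a was 0.81 ± 0.16 (adjusted p = 0.00962), a call that held in 18 of 18 refits with adjusted p-values of up to 0.0496. With OSMI added its log2 fold change of 0.47 ± 0.16 was the smallest of the 8 targets, and for both against vehicle it was 1.27 ± 0.16. Within sides A and B the change with rhWnt3a was 0.53 and 0.96, and that with OSMI added was 0.57 and 0.31.

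Srxn1 (ENSMUSG00000032802, chromosome 2, 152105516 to 152111376) encodes sulfiredoxin, which repairs overoxidised peroxiredoxins, and its promoter holds both the element core and a pair of AP-1 sites. It was at 58.9, 63.7 and 81.9 CPM with vehicle, at 93.3, 87.4 and 90.4 with rhWnt3a and at 209, 180 and 131 with rhWnt3a and OSMI. The 3 groups did not overlap, and replicate 3 was the lowest of the OSMI libraries. Its log2 fold change was 0.41 ± 0.19 with rhWnt3a (adjusted p = 0.266), and 0.09 and 0.58 within sides A and B. With OSMI added it was 0.94 ± 0.19, and 1.15 and 0.51 within sides A and B.

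Hmox1, Nqo1 and Osgin1 had their lowest group mean with rhWnt3a and their highest with rhWnt3a and OSMI. Hmox1 (ENSMUSG00000005413, chromosome 8, 75093621 to 75100589), the inducible heme oxygenase, was at 589, 725 and 987 CPM with vehicle, at 475, 575 and 481 with rhWnt3a and at 1696, 1757 and 841 with rhWnt3a and OSMI. Replicate 3 with OSMI was below vehicle replicate 3 but above every rhWnt3a library. The log2 fold change of Hmox1 with rhWnt3a was -0.59 ± 0.29 and did not pass the test (adjusted p = 0.2997). Within sides A and B it was -0.78 and -0.45. With OSMI added it was 1.49 ± 0.29, and 1.59 and 0.82 within sides A and B, and without OSMI replicate 3 it was 1.76.

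Nqo1 (ENSMUSG00000003849, chromosome 8, 107388225 to 107403206), which reduces quinones, had the widest spread relative to its mean among the OSMI libraries. It was at 24.9, 24.1 and 23.7 CPM with vehicle, at 12.9, 19.3 and 14.3 with rhWnt3a and at 45.8, 54.6 and 14.98 with rhWnt3a and OSMI. Replicates 1 and 2 with OSMI were the highest of the 9 libraries, and replicate 3 lay among the rhWnt3a libraries. The log2 fold change of Nqo1 with rhWnt3a was -0.64 ± 0.38 (adjusted p = 0.426), and -0.29 and -0.85 within sides A and B. With OSMI added it was 1.31 ± 0.38 over all libraries, 1.69 without OSMI replicate 3, and 1.37 within side A against 0.14 within side B, where that replicate is the only OSMI library. Against vehicle its difference was 1.07 log2 within side A and -0.71 within side B.

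Osgin1 (ENSMUSG00000074063, chromosome 8, 119434124 to 119446256) was at 12.2, 14.5 and 16.7 CPM with vehicle, at 9.98, 11.8 and 9.57 with rhWnt3a and at 20.6, 21.0 and 22.4 with rhWnt3a and OSMI. The 3 groups did not overlap, and this was the only target in which replicate 3 was the highest of the OSMI libraries. Its log2 fold change with rhWnt3a was -0.47 ± 0.16 and did not pass the test (adjusted p = 0.113). With OSMI added it was 1.03 ± 0.16, and 0.81 and 1.19 within sides A and B.

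The average of the 8 targets was highest with OSMI, as their choice fixed. The mean of their standardised log2 CPM was -0.89 to -0.31 in the vehicle libraries, -0.48 to -0.46 in the rhWnt3a libraries, and 1.36, 1.35 and 0.58 in replicates 1 to 3 with rhWnt3a and OSMI. Each target is part of this mean, and all were picked for the same rise, so a high correlation with it was largely set in advance. Over the 9 libraries, which also share group and the length axis, Pearson's r with the mean was 0.99 for Gclm, 0.97 for Srxn1, 0.94 for Gclc and 0.67 for Nqo1, and lay from 0.80 to 0.88 for the other 4 targets. Nfe2l2 had an r of -0.18 and Keap1 of -0.26. Outside the 10 genes, the highest r values were those of Nr1d2 (0.98), the nuclear receptor REV-ERB beta, Por (0.97), the reductase that supplies electrons to cytochromes P450, Mtdh (0.97), Pspc1 (0.96), Yipf6 (0.95) and Homer1 (0.95). The group means of Nr1d2 were 72.4, 92.7 and 184 CPM in the vehicle, rhWnt3a and combined groups, and those of Por were 60.3, 65.4 and 89.9 CPM. These values describe 9 libraries in 3 groups and say nothing of shared control.

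Next came the messengers of proteins that act with or on NRF2. Of 13 listed regulators 12 were tested, and with rhWnt3a 1 was called lower and none higher, beside 5.86% and 2.92% of all tested genes, so that 1 gene of 12 is no result about the list. The gene called lower was Mafk, a small MAF partner of NRF2, at 41.8, 42.1 and 55.4 CPM with vehicle and 29.5, 31.6 and 34.0 with rhWnt3a (log2 fold change -0.55 ± 0.15, adjusted p = 0.0424), a call that held in 6 of 18 refits and was lost without any single library other than OSMI replicate 3. With OSMI added none of the 12 was called by edgeR's test, where 1.69% of all tested genes were called higher and 3.05% lower, and their median log2 fold change was 0.30, beside -0.01 over all tested genes. Mafg, another small MAF, was at 216, 204 and 213 CPM with rhWnt3a and at 284, 272 and 330 with rhWnt3a and OSMI, and just missed the threshold (log2 fold change 0.49 ± 0.12, adjusted p = 0.0549). Against vehicle Mafg was called higher (0.54 ± 0.12, adjusted p = 0.0171), a call lost without vehicle replicate 1 or OSMI replicate 3. The regulators with the highest levels per length with vehicle were Sqstm1, the autophagy receptor that binds KEAP1, and Nfe2l1, a relative of NRF2. Their log2 fold changes with OSMI added were 0.49 ± 0.25 (adjusted p = 0.283) and 0.39 ± 0.18 (adjusted p = 0.223).

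The other listed targets of NRF2, 31 genes of which 27 were tested, included both called and uncalled genes in each comparison. Their median log2 fold change was 0.14 with rhWnt3a, 0.02 with OSMI added and 0.02 for both against vehicle, beside 0.04, -0.01 and -0.01 over all tested genes, and 16, 14 and 14 of the 27 were above 0. With rhWnt3a 1 of the 27 was called higher and 1 lower, beside 2.92% and 5.86% of all tested genes. With OSMI added 2 were called higher and none lower, beside 1.69% and 3.05%. For both against vehicle 5 were called higher and 3 lower, beside 4.84% and 9.34%. As the 8 targets were picked for standing higher, a test between these 27 genes and the 8 would compare genes chosen on the result, and none was made. The element core was found in the promoter windows of 9 of 26 of these genes that had one, beside 14% of all genes with a window.

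Of the glutathione genes Gstm1, a glutathione S-transferase, moved in both comparisons. Gstm1 was at 76.7, 78.9 and 81.0 CPM with vehicle, at 41.6, 47.2 and 37.7 with rhWnt3a and at 83.4, 86.6 and 69.7 with rhWnt3a and OSMI. It fell with rhWnt3a (log2 fold change -0.90 ± 0.13, adjusted p = 0.00218) and rose when OSMI was added (0.92 ± 0.13, adjusted p = 0.00582), and both calls held in 18 of 18 refits. Its value for both against vehicle was 0.02 ± 0.13 (adjusted p = 0.939). Gstp1 and Gsta4, which had the highest levels per length of this list with vehicle, had log2 fold changes of -0.09 ± 0.26 and -0.33 ± 0.39 with OSMI added (adjusted p = 0.852 and 0.623). Gpx2, Gsta1, Gsta2 and Gsta3 were too low to be tested, and Gpx2 was at 0 in every library.

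The list of detoxification and export held the other gene called with OSMI added. Abcc1, which exports glutathione conjugates, was at 99.98, 107 and 85.6 CPM with vehicle, at 144, 79.3 and 136 with rhWnt3a and at 300, 264 and 276 with rhWnt3a and OSMI. It rose when OSMI was added (log2 fold change 1.22 ± 0.21, adjusted p = 0.0123), in 18 of 18 refits. Abcc4, a related exporter, was called only for both against vehicle (1.17 ± 0.22, adjusted p = 0.00593), and its value with OSMI added was 0.64 ± 0.21 (adjusted p = 0.118). Aldh3a1, an aldehyde dehydrogenase, was at 5.31, 2.10 and 3.51 CPM with vehicle, at 12.2, 16.3 and 12.2 with rhWnt3a and at 17.0, 15.9 and 9.03 with rhWnt3a and OSMI. Aldh3a1 rose with rhWnt3a (1.90 ± 0.34, adjusted p = 0.00652, 18 of 18 refits), and its value with OSMI added was 0.04 ± 0.32 (adjusted p = 0.950). Ephx1 and Akr1b8, which had the highest levels per length of this list with vehicle, were not called with OSMI added, at 0.02 ± 0.27 (adjusted p = 0.968) and -0.86 ± 0.26 (adjusted p = 0.0976). Ugdh was called lower for both against vehicle (-0.50 ± 0.14, adjusted p = 0.0402), a call lost without any single library and kept in 3 of 18 refits.

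The genes that supply NADPH moved in different directions for both agents against vehicle. Pgd, of the pentose phosphate pathway, was at 112, 127 and 167 CPM with vehicle and at 358, 337 and 213 with rhWnt3a and OSMI, and rose (1.16 ± 0.22, adjusted p = 0.00699, 18 of 18 refits). Tkt, the transketolase of the same pathway, fell (-0.53 ± 0.11, adjusted p = 0.0103), and so did Idh1, the cytosolic isocitrate dehydrogenase (-0.69 ± 0.19, adjusted p = 0.0334). The call of Tkt was lost without vehicle replicate 2, rhWnt3a replicate 1 or OSMI replicate 2, and that of Idh1 held in 10 of 18 refits and was lost without vehicle replicate 1 or 2, rhWnt3a replicate 1 or 3, or OSMI replicate 1 or 3. With OSMI added none of the 6 genes of this list was called, and Taldo1 and Idh1, which had its highest levels per length with vehicle, were at -0.40 ± 0.28 (adjusted p = 0.408) and -0.60 ± 0.19 (adjusted p = 0.102).

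Ferritin and thioredoxin itself did not pass the test in any comparison. Fth1, the ferritin heavy chain, was at 5033, 7287 and 4973 CPM with rhWnt3a and at 9177, 9993 and 8346 with rhWnt3a and OSMI, groups that did not overlap (log2 fold change 0.67 ± 0.27, adjusted p = 0.184). Ftl1, the light chain, was at 3549, 3356 and 1046 CPM with rhWnt3a and OSMI (0.13 ± 0.41 against rhWnt3a, adjusted p = 0.875). Slc48a1, a heme transporter, rose for both against vehicle (0.89 ± 0.21, adjusted p = 0.0193), though not without replicate 1 or 2 of either group. Txn1 and Prdx1, the substrates of Txnrd1 and Srxn1, were at -0.55 ± 0.34 (adjusted p = 0.361) and -0.22 ± 0.37 (adjusted p = 0.742) with OSMI added, and in replicate 3 of that group both had their lowest values of the 9 libraries, 48.5 and 155 CPM.

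**Figure D5:**
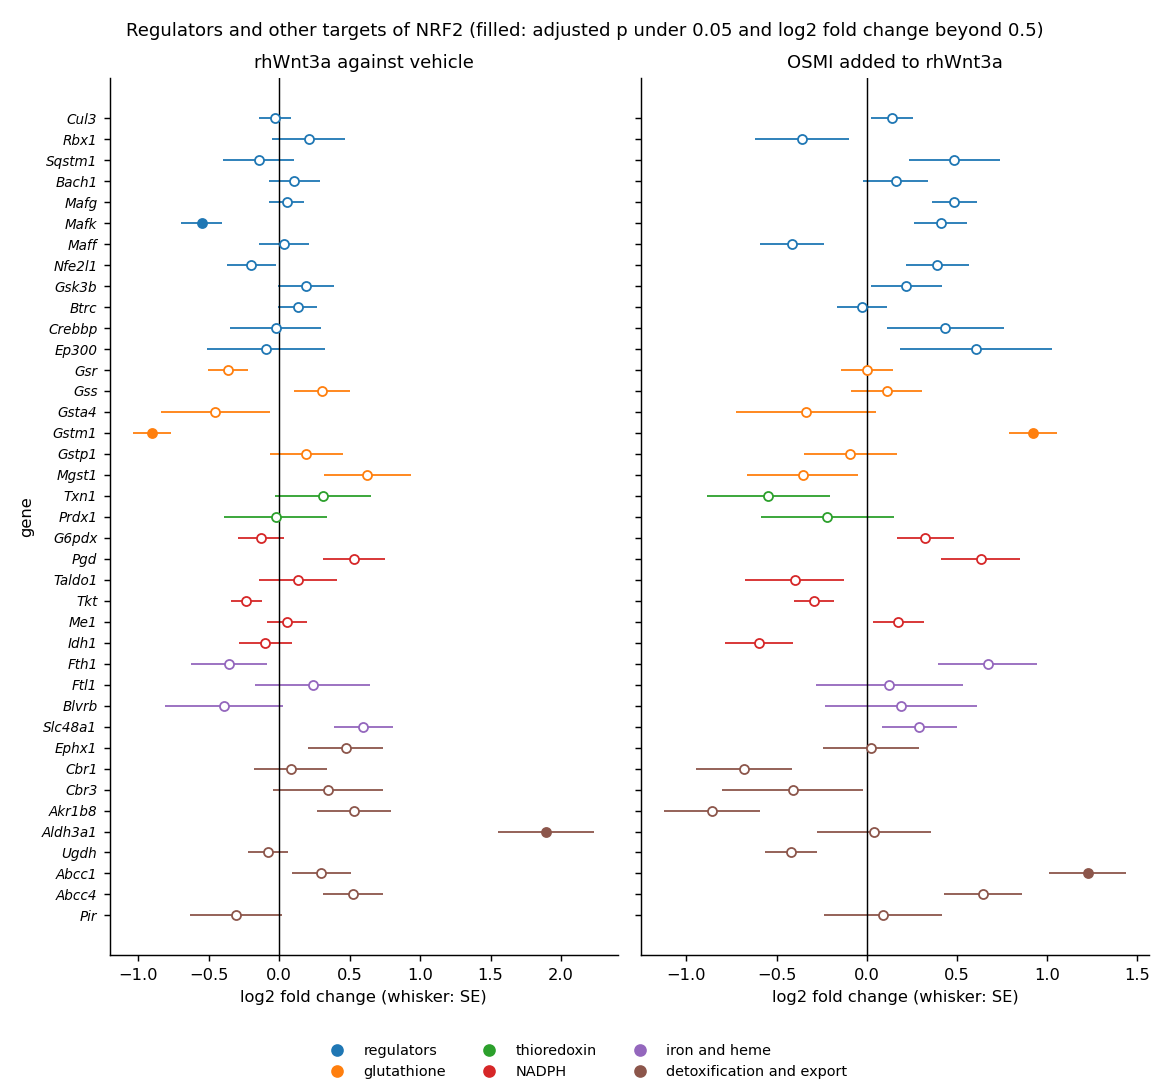
Regulators and other targets of NRF2, in log2 fold change with SE as whisker on the x axis, for rhWnt3a against vehicle on the left and OSMI added to rhWnt3a on the right. Colours give the list of each gene, and filled points are genes that met the call rule. With OSMI added, Gstm1 and Abcc1 are the filled points, while the other genes lie on both sides of 0 as open points.

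Other stress responses that share inducers or targets with NRF2 were followed by 3 lists, whose counts of calls are to be read beside the shares of all tested genes given above. Of 17 ATF4 targets, Psat1, of serine synthesis, was called higher with rhWnt3a (0.80 ± 0.19, adjusted p = 0.0249) and for both against vehicle (0.81 ± 0.19, adjusted p = 0.0178), and Ddit4, an inhibitor of mTORC1, was called lower with OSMI added (-0.69 ± 0.13, adjusted p = 0.0159). The calls of Psat1 were lost without replicate 1 or 2 of either group compared, with rhWnt3a also without its replicate 3, and that of Ddit4 without rhWnt3a replicate 2 or 3 or OSMI replicate 1 or 2. The median log2 fold change of the ATF4 targets with OSMI added was -0.04. Slc7a11, which carries the ATF4 element, was picked for standing higher with OSMI, and the part of ATF4 in its level was not tested. None of the 4 tested of 6 heat shock targets was called in any comparison by edgeR's test, with a median of 0.12 when OSMI was added. None of the 2 tested of 4 aryl hydrocarbon receptor targets was called either, with values of 0.27 ± 0.16 for Cyp1b1 (adjusted p = 0.355) and -0.09 ± 0.14 for Tiparp (adjusted p = 0.707).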

How the data were processed

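The deposited table holds counts of reads per gene, which the authors left without normalization, in 9 libraries of ST2 cells. The submitters' processing notes name CASAVA, fastp, HISAT2 2.0.5, featureCounts 1.5.0-p3 and the build mm10. Strand setting and annotation release are not given in the sources used here. The deposited gene length (bases) was used for levels per kilobase. The 9 deposited FPKM columns and the columns of the authors' own comparisons (fold changes and p-values) were not used.

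The filter filterByExpr (minimum count 10, minimum total 15) of edgeR 4.0.16 under R 4.3.3 left 14004 of 54532 genes. After TMM scaling, the 3 groups were fitted together by glmQLFit and compared by the two-sided glmQLFTest, with Benjamini-Hochberg adjustment over the tested genes. The common dispersion was 0.0452. Calls required both an adjusted p below 0.05 and a log2 fold change of more than 0.5 in size. CPM are per TMM-scaled total, and log2 CPM add a prior count of 2. The genes and lists were chosen with earlier results of these data known. From the lists every called gene was named, and from each list of NRF2 regulators or other NRF2 targets also the 2 genes with the highest level per length with vehicle, and 6 genes most like the targets by Pearson's r. Alternatives included DESeq2 1.42.0, and the scripts were tested on simulated data. Near-identical transcripts were sought with BLAST 2.17.0. Replicate pairs of a group differed by a chi-square of 3.02 to 92.7 per degree of freedom, so none was counted as 1 sample.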

Additional observations from a re-analysis of the deposited data

How the results depend on the processing

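Alternatives were other tools, scalings, filters and thresholds, leaving out each replicate, 2 libraries a group without the farthest library, the side of the length axis as a term, and an offset by gene length, the last chosen after seeing the data. No log2 fold change of a target or of Keap1 changed its sign. For rhWnt3a against vehicle, 1 of the 10 genes was called, and 2 were called with DESeq2, with RLE size factors, with at least 10 counts in every library, at an unadjusted p under 0.05 and with the length offset, 3 with the side as a term, 4 with 2 libraries a group, 0 at a log2 fold change beyond 1, and 1 to 3 leaving out 1 replicate. With OSMI added the 5 became 7 with DESeq2, where Nqo1 and Slc7a11 were also called, and 7 with no filter or at an unadjusted p under 0.05. They became 3 at a log2 fold change beyond 1, 2 with the replicate block and 8 with 2 libraries a group. Leaving out 1 replicate gave 2 to 6, lowest without rhWnt3a replicate 3 and highest without OSMI replicate 3. For both against vehicle the 6 became 5 to 7 leaving out 1 replicate. The 2 other targets called with rhWnt3a became 1 at a log2 fold change beyond 1, 5 at an unadjusted p, 5 with the side as a term, 8 with 2 libraries a group, and 2 to 4 leaving out 1 replicate. The 2 called with OSMI added became 1 at a log2 fold change beyond 1, 5 with DESeq2, 5 with no filter, 8 at an unadjusted p, 10 with 2 libraries a group, 2 to 3 leaving out 1 replicate, and 13 with the side as a term (4 higher, 9 lower). The 8 called for both against vehicle became 5 with the 6 libraries of the comparison, 4 at a log2 fold change beyond 1, 4 with the replicate block, 13 with 2 libraries a group, 15 with the side as a term (5 higher, 10 lower), and 4 to 7 leaving out 1 replicate. The cause of these shifts was not tested. Same-numbered replicates correlated in their deviations at -0.49 to 0.44. The length axis is part of these deviations, so the correlations cannot settle whether the numbers pair the libraries. The labels do not say so either, and the block result treats same-numbered libraries as paired. Another scaling moved the median of all genes by less than 0.1 log2.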
